A study of Homo sapiens with 8 samples.

Results

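Ribosome footprints, the short RNA fragments that a translating ribosome shields from nuclease, were compared between cells carrying guide RNAs against METTL16 and cells carrying a control guide. The comparison covered 1821 of the 26830 genes in the deposited table. These were the genes above 0 in all 4 footprint libraries (1870 genes) without 49 small RNAs, recognised by symbols that start with RN7S, RNU, RNY, VTRNA, SNOR, SCARNA or MIR. The unit is TPM, a length-scaled share of the transcripts in a library, and it was rescaled so that the 1821 genes add up to 1000000 in every library. A rescaled TPM is therefore a share among these genes and no absolute amount.

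By their labels, all cells came from 1 clone of HEK293T that carries Cas9, the nuclease that a guide RNA directs to its target. The footprints carried abundant hepatocyte markers, which are described below. HEK293T is an established human embryonic kidney line. Guides were delivered by lentivirus, and 3 cultures received a different guide each (sgMETTL16-1, sgMETTL16-2 and sgMETTL16-3), while 1 culture received the negative control guide (sgNS). Cultures of both kinds grew for 1 week or more under selection (10 µg/ml blasticidin, 2 µg/ml puromycin), and 100 µg/ml cycloheximide, an inhibitor of elongation, was added for 5 min before lysis. Footprints of 17 to 34 nt were taken from a gel, depleted of ribosomal RNA and read as 51-base single-end reads. An input RNA library was made from every culture as well. Values of the sgMETTL16 libraries are given below in the order of their guide numbers.

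METTL16 is an enzyme that puts a methyl group on adenosines in RNA, and its known substrates include the U6 small nuclear RNA and hairpins in the mRNA of MAT2A, which makes the methyl donor S-adenosylmethionine. The density of footprints on an mRNA reflects both how much of the mRNA there is and how many ribosomes each copy carries, so a footprint level alone does not separate the former from the latter. The comparison addresses which genes gain or lose share among the footprints of the compared genes when METTL16 is targeted.

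No gene passed the threshold. In limma's moderated test on log2(rescaled TPM + 1) with Benjamini-Hochberg adjustment, 0 of 1821 genes were called higher (0.0%) and 0 lower (0.0%) at an adjusted p of 0.05. The smallest adjusted p in limma was 0.523. At an unadjusted p of 0.05, 10 genes were higher and 54 lower in the sgMETTL16 libraries. That split turned with the scaling: it was 57 higher and 34 lower with every library centred on its median gene, 62 and 50 with quantile normalization, 39 and 36 over protein-coding genes alone and 35 and 46 without ribosomal RNA. The lone sgNS library was assumed to vary as the sgMETTL16 libraries do, and since those carry different guides, the spread covers guides as well as cultures. The median gene stood at -0.24 on the log2 scale, with medians of -0.20, 0.11 and -0.63 in the single sgMETTL16 libraries. Differences below are to be read against these values.

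The direction was less often shared than mixed. In all 3 sgMETTL16 libraries, 236 genes (13.0%) were higher than in sgNS and 530 (29.1%) were lower. With centring these counts became 445 (24.4%) and 409 (22.5%). The surplus of lower genes thus depended on the scaling. Centring also brought 3 genes past the threshold in limma, all higher (0.165% of those tested): GDF15, GOT1 and AKR1C3.

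Ribosomal RNA took a large share of the signal over the compared genes. The genes RNA18S5, RNA28S5, RNA5-8S5 and RNA45S5 held 51.1% of the rescaled TPM in sgNS and 47.2%, 27.6% and 70.9% in the sgMETTL16 libraries. The share was lowest in sgMETTL16-2 and highest in sgMETTL16-3, with sgNS between them. Of all deposited footprint TPM, the 4 genes held 20.2% in sgNS and 16.9%, 7.42% and 21.7% in the sgMETTL16 libraries. The median gene was at 94.8 rescaled TPM in sgNS and at 85.5, 108 and 56.9 in the others, highest in sgMETTL16-2 and lowest in sgMETTL16-3. Without these 4 genes limma again called 0 genes, with 81 at an unadjusted p of 0.05 (35 higher and 46 lower).

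**Figure D1:**
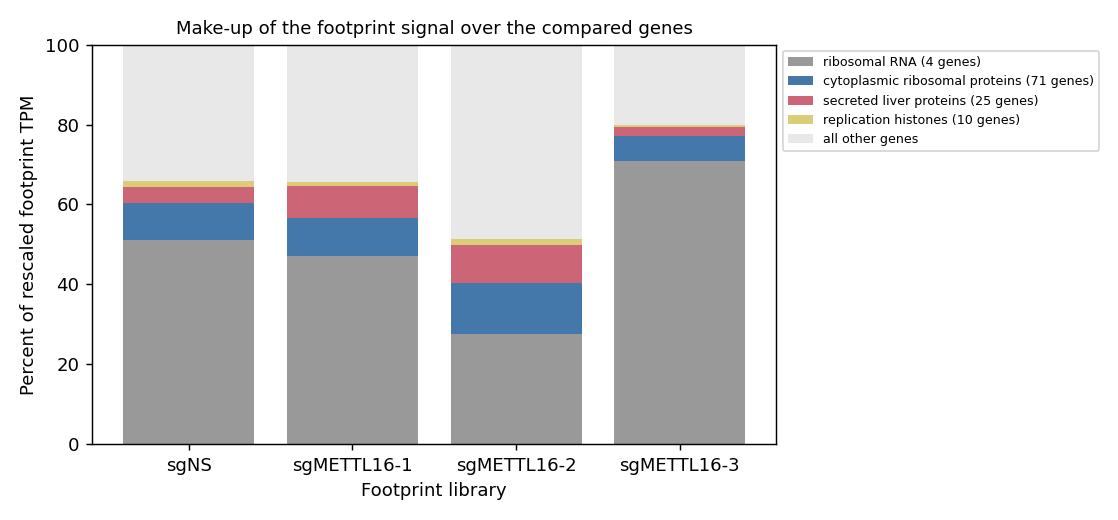
Share of rescaled footprint TPM (percent, vertical axis) held by 4 gene groups and all other compared genes, as stacked bars, 1 bar for each footprint library. Ribosomal RNA takes 27.6% in sgMETTL16-2 and 70.9% in sgMETTL16-3, and secreted liver proteins take from 2.12% to 9.57%.

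The compared genes were the well-expressed ones. Of the 1821, 1796 were protein-coding in the RefSeq annotation of GRCh38.p14, 7 were long non-coding RNAs, 6 were pseudogenes of 2 kinds with 3 each, 1 was the RNA of RNase P and 11 had no match. Protein-coding members had a median input of 16.7 TPM, against 5.76 TPM for other protein-coding genes with a mean input of 1 TPM or more. Ordered by input level into 10 bins of about 992 genes, 3.93% of the lowest bin and 50.5% of the highest were members. They held 69.5% of the protein-coding footprint TPM in sgNS and 68.1%, 66.7% and 70.3% in the sgMETTL16 libraries. Of all deposited footprint TPM, the 1821 genes held 39.5% in sgNS and 35.9%, 26.9% and 30.6% in the sgMETTL16 libraries.

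The footprint libraries were sparse, with 4586 genes above 0 in sgNS and 5799, 6735 and 4362 in the sgMETTL16 libraries. Read totals were not used here, so the depth is unknown. Across the 1821 genes, pairs of libraries correlated at a Pearson r of 0.82 to 0.87 and a Spearman rho of 0.75 to 0.83 on the log2 scale. These describe genes, which share a library and are not independent replicates.

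A ratio recurred between libraries, which is what genes with the same small number of reads would give. With a tolerance of 0.02 on the natural log scale, 357 genes (19.6%) had a deposited sgNS value 1.93 times that of sgMETTL16-1. The ratio to sgMETTL16-2 was 2.75 for 267 genes (14.7%), and that to sgMETTL16-3 was 1.97 for 508 genes (27.9%). On the rescaled log2 scale these genes lay at -0.77, -0.87 and -0.62. If they hold equal reads, a difference of that size is the value that equal counts take, and 51 genes (2.80%) lay at the recurring ratio in all 4 libraries. Further genes lay a step of 2 times away from it. With sgNS 2 times higher than the recurring ratio gives, these were 115, 77 and 218 genes. With the sgMETTL16 library 2 times higher they were 234, 215 and 226. How many changes are such steps between small read numbers was not tested.

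**Figure D2:**
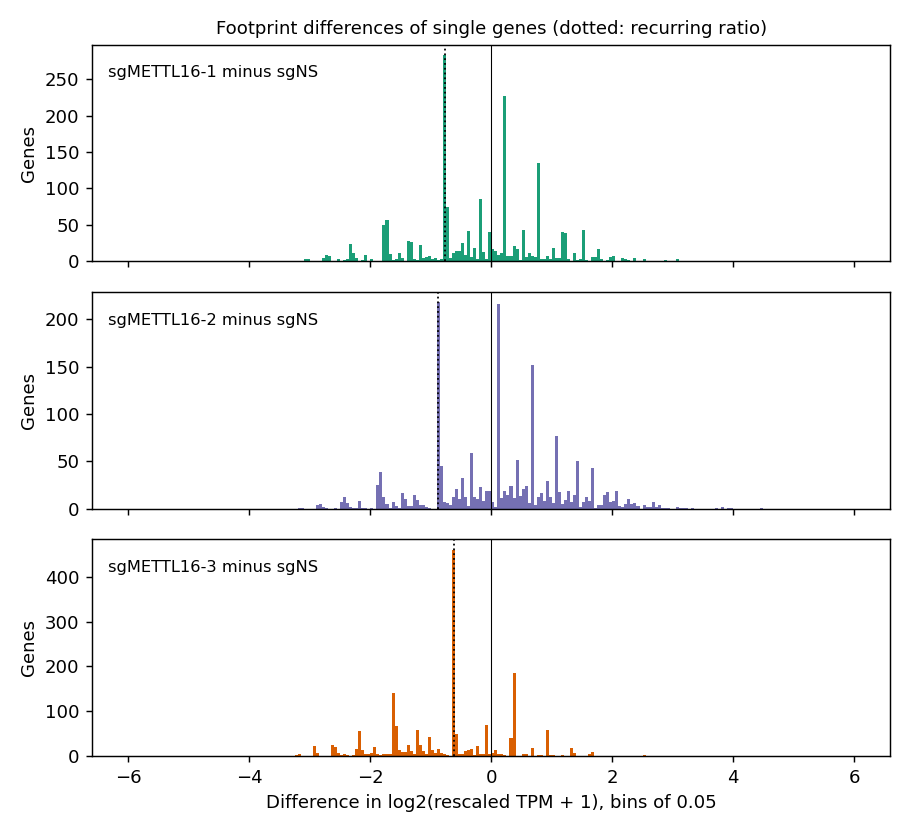
Number of genes (vertical axis) by their difference to sgNS in log2(rescaled TPM + 1), in bins of 0.05, with 1 panel for each sgMETTL16 library. The dotted lines mark the recurring ratio at -0.77, -0.87 and -0.62, where the tallest bar of each panel stands, and further narrow bars stand apart from it.

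METTL16 itself (chromosome 17, 2415715 to 2511888) was not among the compared genes. It had 19.8 deposited TPM in the sgNS footprints and was listed at 0 in the other 3 footprint libraries. Its deposited input TPM was 5.31 with the control guide, and 4.72, 5.25 and 4.16 with the METTL16 guides. In sparse footprints a value of 0 can come from few reads, so this is no measure of the knockout.

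Markers of hepatocytes were abundant in the footprints, and most markers of the labelled line were not. Of 10 hepatocyte markers, 8 were above 0 in all 4 footprint libraries (ALB, AFP, TTR, TF, SERPINA1, APOA1, APOB and FGB), and the sum of all 10 was 11366 deposited TPM in sgNS and 19993, 15874 and 4213 in the sgMETTL16 libraries. Of 14 HEK293 markers, 3 were above 0 in all 4 (KRT8, KRT18 and VIM), and NEFL, NEFM, NEFH, GAP43, STMN2, PAX2 and EN2 were at 0 in all 4, with sums of 574, 853, 1177 and 333. Of 10 fibroblast markers 0 and of 16 blood markers 1 (LYZ) were above 0 in all 4. Among 11 epithelial markers 2 were above 0 in all 4 (EPCAM and KRT19) and 5 were at 0 in all 4. The labels name no liver cell, and the samples are called here as labelled.

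Of the 7 protein-coding genes among the 12 highest levels, 4 encode proteins that the liver secretes (ALB, AFP, SERPINA3 and FGG). ALB, which encodes serum albumin (chromosome 4, 73404287 to 73421482), was at 11565 rescaled TPM in sgNS and at 26652, 26077 and 5235 in the sgMETTL16 libraries. AFP, the fetal counterpart of albumin, was at 11837 and at 14500.5, 16330 and 3761. Both were above sgNS with 2 of the guides and below it with sgMETTL16-3, so the groups overlapped. LYZ (lysozyme), ACTB (cytoplasmic actin), SERPINA3 (a protease inhibitor of plasma), FGG (fibrinogen gamma chain) and RPL27 (a ribosomal protein) completed the highest 12 together with the 4 ribosomal RNA genes and RPPH1, the RNA of RNase P. Of these 12, RPPH1 was higher in all 3 sgMETTL16 libraries, RNA18S5 was lower in all 3 and the other 10 were mixed.

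The 3 genes with the smallest p in the higher direction passed limma's test with median centring, and also where sgMETTL16-3 was left out. GDF15, a secreted stress cytokine and p53 target (chromosome 19, 18386158 to 18389176), was at 123 rescaled TPM in sgNS and at 997, 1650.5 and 710.3 in the sgMETTL16 libraries. All 3 guides lay above sgNS. On the log2 scale the change came to 3.09 (SE 1.08, adjusted p = 0.978 in limma), and 3.32 with centring (limma adjusted p = 0.0248). Its deposited input TPM was 152 with the control guide and 465, 680.5 and 696 with the METTL16 guides, also higher in all 3.

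GOT1, the cytosolic aspartate aminotransferase (chromosome 10, 99396870 to 99430624), was at 68.3 rescaled TPM in sgNS and at 516, 1068 and 308 in the sgMETTL16 libraries. AKR1C3, an aldo-keto reductase that acts on steroids and prostaglandins (chromosome 10, 5048781 to 5107686), was at 135 and at 955, 2134 and 579. For both genes the groups did not overlap, with sgMETTL16-2 highest and sgMETTL16-3 nearest to sgNS. The log2 change of GOT1 was 3.00 (SE 1.08) and that of AKR1C3 was 2.96 (SE 1.10), each with a limma adjusted p of 0.978, which became 0.0260 with centring. The inputs were higher in all 3 cultures as well, from 26.01 TPM to 69.9, 62.3 and 39.1 for GOT1 and from 18.2 TPM to 46.0, 76.4 and 23.8 for AKR1C3. Footprint and input differences did not differ past the threshold for any gene (0 of 1821, 0.0%, limma interaction, with 83 genes at an unadjusted p of 0.05).

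The other 7 of the 10 genes with the smallest p in the higher direction were APLP2 (an amyloid precursor-like protein), CTSB (a lysosomal protease), SERPIND1 (heparin cofactor), RPS24 (a ribosomal protein), PSMD4 (a ubiquitin receptor of the proteasome), CPD (a carboxypeptidase) and PMPCB (a subunit of the mitochondrial processing peptidase). CTSB was at 38.3 rescaled TPM in sgNS and at 334, 889 and 73.9 in the sgMETTL16 libraries. APLP2 was at 38.2 and at 289, 556 and 123. Both were highest in sgMETTL16-2 and nearest to sgNS in sgMETTL16-3, and without sgMETTL16-3 both passed limma's test (log2 3.79 and 3.36).

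The genes with the smallest p in the lower direction were low ones. The 10 lower genes had a median level of 22.7 rescaled TPM over the 4 libraries (9.83 to 51.3), against 293 (65.0 to 951) for the 10 higher ones and 92.4 for all compared genes. Among the 10 lower genes, 4 lay at the recurring ratio among the 3 sgMETTL16 libraries (KDM5A, ZNF587, DLAT and USF3), against 4.89% of all compared genes and 0 of the 10 higher ones. Its part in the result was not tested.

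SYNE2, a giant protein of the nuclear envelope (chromosome 14, 63761596 to 64226449), was at 26.3 rescaled TPM in sgNS and at 3.81, 3.54 and 8.45 in the sgMETTL16 libraries. KDM5A, a histone demethylase, was at 39.7 and at 7.68, 7.15 and 8.52. DLAT, a subunit of the pyruvate dehydrogenase complex, was at 133 and at 19.3, 17.9 and 21.3. Each gene lay below sgNS with all 3 guides. The guides lay close together for KDM5A and DLAT, both at the recurring ratio. SYNE2 was higher in sgMETTL16-3 than with the other guides, and in sgMETTL16-1 it stood at the lowest value of any compared gene (3.81). In the order named, the log2 changes were -2.21 (SE 0.54), -2.22 (SE 0.62) and -2.71 (SE 0.88). The limma adjusted p of SYNE2 was 0.523, and leaving out sgMETTL16-2 or sgMETTL16-3 took it past the threshold, at log2 changes of -2.02 and -2.54. Leaving out sgMETTL16-1 did not (-2.06), and neither did centring (-1.98).

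MAT2A, the METTL16 substrate (chromosome 2, 85539168 to 85545281), was at 188 rescaled TPM in sgNS and at 29.8, 77.8 and 92.8 in the sgMETTL16 libraries. All 3 guides lay below sgNS. On the log2 scale the change came to -1.63 (SE 1.06, adjusted p = 0.978 in limma). Its deposited input TPM was 16.9 with the control guide and 27.5, 20.8 and 11.5 with the METTL16 guides, where the groups overlapped. Of 23 genes around methionine and S-adenosylmethionine, 11 were compared and 0 were called, with a median of -0.49 and library medians of 0.21, -0.56 and -0.63. All 3 libraries were lower for 5 and higher for 0, against 29.1% and 13.0% over all genes, and with centring lower for 3 and higher for 1, against 22.5% and 24.4%. AHCY, which clears the product of methyl transfer, was at 306 and at 178, 263.7 and 39.4, with every guide below sgNS.

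**Figure D3:**
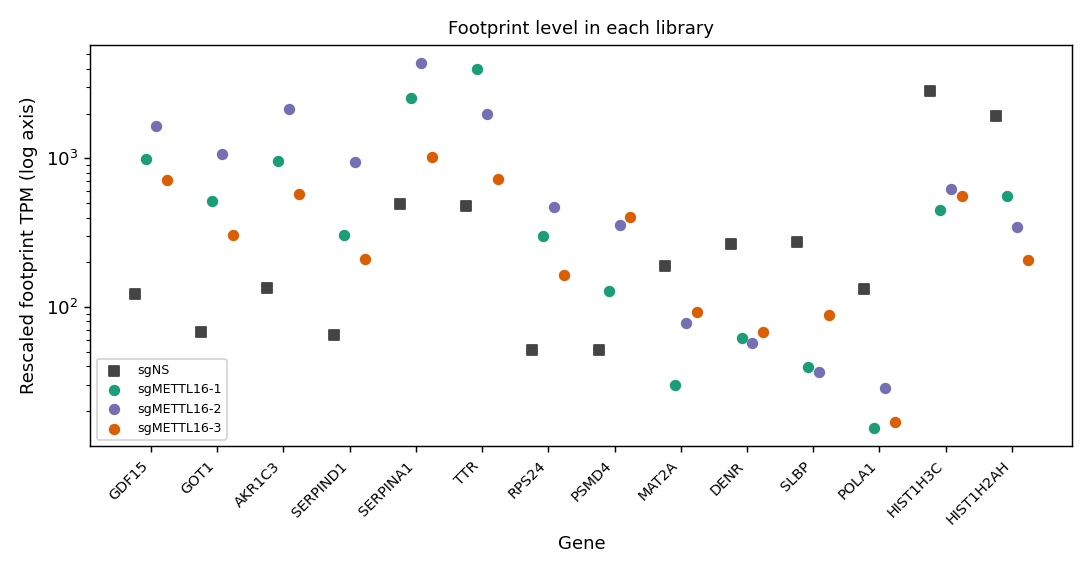
Rescaled footprint TPM (logarithmic vertical axis) of 14 genes in the sgNS library (squares) and the 3 sgMETTL16 libraries (circles). The sgNS square lies below all circles for GDF15, GOT1, AKR1C3, SERPIND1, SERPINA1, TTR, RPS24 and PSMD4, and above all circles for the other 6 genes.

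Gene groups were described by their counts and medians. The values over all compared genes are a median of -0.24, with 13.0% higher and 29.1% lower than sgNS in all 3 libraries, and 24.4% and 22.5% with centring. No list was tested against these. Of 31 lists, 22 had 5 or more members among the 1821 genes. In the fit without centring, limma called 0 members of any list, and with centring GDF15 on the p53 list was called.

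Secreted liver proteins stood highest after the apolipoproteins. Of 47 listed genes 25 were compared, and their median log2 difference was 0.73, against -0.24 over all genes. The medians of the single libraries were 1.21, 1.48 and -0.62, so sgMETTL16-1 and sgMETTL16-2 were high and sgMETTL16-3 was level with its own median gene (-0.63). Both sgMETTL16-3 values lay near the recurring ratio of that library (-0.62). All 3 libraries were higher for 7 of the 25 (TTR, SERPINA1, AHSG, ORM2, AMBP, SERPIND1 and SERPINF1) and lower for 0, against 13.0% and 29.1% over all genes. With centring they were higher for 15 and lower for 0, against 24.4% and 22.5%. The inputs of the same 25 genes had a median of 0.51, against 0.26 over all compared genes.

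SERPINA1 (alpha-1-antitrypsin) was at 497 rescaled TPM in sgNS and at 2546, 4383 and 1017 in the sgMETTL16 libraries. TTR (transthyretin, a carrier of thyroid hormone and retinol-binding protein) was at 480 and at 3992, 1979 and 721. AHSG, the plasma protein fetuin A, was at 743 and at 2105, 3503 and 837. In none of the 3 did the groups overlap, and sgMETTL16-3 lay nearest to sgNS. SERPINA1 and TTR had log2 changes of 2.17 (SE 1.14) and 1.89 (SE 1.15) and a limma adjusted p of 0.978 each. Summed over the 25 genes, the list held 4.08% of rescaled TPM in sgNS and 7.89%, 9.57% and 2.12% in the sgMETTL16 libraries (exact two-sided permutation p = 1, where 1 library against 3 allows none below 0.25). Without ribosomal RNA the shares were 8.35%, 14.9%, 13.2% and 7.28%. The 10 genes of highest mean level include members of this list, among them ALB and AFP, both lowest in sgMETTL16-3. Without those 10 genes the rest of the list held 3.38%, 6.95%, 6.71% and 3.80% (exact two-sided permutation p = 0.25). Over this reduced list sgMETTL16-3 lay above sgNS and no longer below it. The hepatocyte marker sum given above, which has genes in common with this list, put the libraries in the same order as the shares without ribosomal RNA, and its part in the result was not tested. In bulk samples fewer cells of a type and less RNA per cell cannot be told apart.

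Of 14 apolipoproteins 5 were compared, with a median of 0.78. APOA2, a main protein of high-density lipoprotein, was at 1629 rescaled TPM in sgNS and at 5852, 6992 and 1471 in the sgMETTL16 libraries. APOA1, the other main one, was at 959 and at 2505.5, 2581 and 694. All 5 genes (with APOB, APOE and APOH) lay above sgNS in sgMETTL16-1 and sgMETTL16-2 and below it in sgMETTL16-3. So 0 were higher and 0 lower in all 3 libraries, against 13.0% and 29.1% over all genes. With centring 3 were higher and 0 lower, against 24.4% and 22.5%, and the list median in sgMETTL16-3 was 0.26. The side on which sgMETTL16-3 lay thus depended on the scaling for some of these genes.

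**Figure D4:**
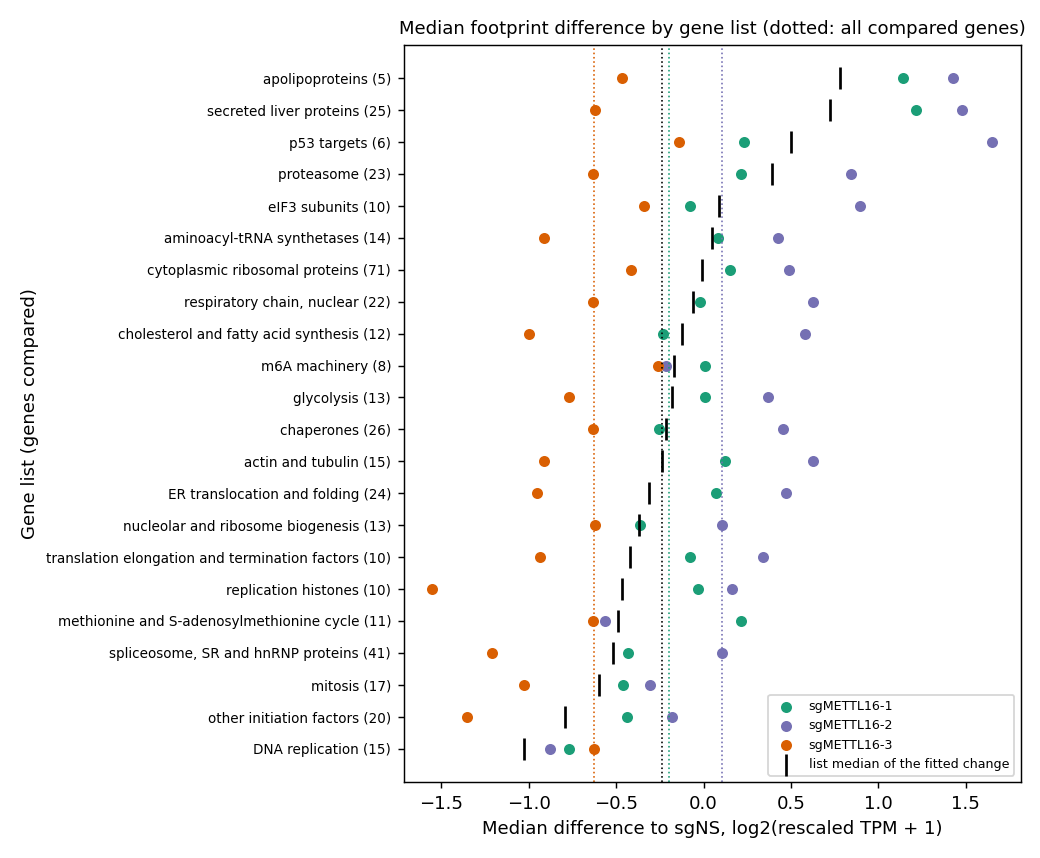
Median difference to sgNS in log2(rescaled TPM + 1) (horizontal axis) for the 22 gene lists with 5 or more compared genes (number in brackets). Circles are the sgMETTL16 libraries, black bars the list's median fitted change, and dotted lines the same over all 1821 genes. Secreted liver proteins lie at 0.73 and DNA replication at -1.03.

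Ribosomal proteins lay on both sides of sgNS. Of 80 cytoplasmic ribosomal proteins 71 were compared, with a median of -0.01 and library medians of 0.15, 0.49 and -0.41. All 3 libraries were higher for 12 and lower for 12 of the 71, against 13.0% and 29.1% over all genes, and with centring higher for 29 and lower for 13, against 24.4% and 22.5%. The list held 9.28% of rescaled TPM in sgNS and 9.50%, 12.7% and 6.35% in the sgMETTL16 libraries (exact two-sided permutation p = 0.75), and 18.99%, 18.0%, 17.5% and 21.8% without ribosomal RNA. RPS24 was at 51.4 rescaled TPM in sgNS and at 299, 471 and 165, above sgNS with every guide. RPS20 was at 1168.5 and at 216, 629 and 564, and RPS23 at 305 and at 76.0, 212 and 56.1, both below it with every guide.

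Ribosomal protein mRNAs commonly begin with a 5′ terminal oligopyrimidine (TOP) tract, a C followed by a run of C and T that ties their translation to growth signals. The tract was searched on the coding strand, as a C at the annotated start followed by at least 4 bases that are each C or T, in RefSeq start windows of GRCh38.p14. It was found in 1429 of 35116 windows (4.07%). By gene, where any window with the tract counts, it was found in 42 of 55 ribosomal protein members with a window (76.4%). The same count gave 139 of 1465 other members (9.49%) and 1223 of 25785 genes that were no members (4.74%). A match is a description of these letters and no shown site. The starts below run from 10 bases before the annotated start to 15 bases from it, with the run in capitals. They show 3 genes of the translation machinery (EEF1A1, RPS6 and RPS24) and TPT1, all with the run. Beside them stand 3 genes that lack it: the most abundant protein-coding gene (ALB), and GDF15 and GOT1, which had the smallest p in the higher direction.
EEF1A1 (chr6:73521018-73521042, minus strand): cgtgaacgttCTTTTTCgcaacggg
RPS6 (chr9:19380222-19380246, minus strand): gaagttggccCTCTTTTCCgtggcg
RPS24 (chr10:78033853-78033877, plus strand): aatcgtggttCTCTTTTCCTCCTTg
TPT1 (chr13:45341169-45341193, minus strand): ctgagtcggcCTTTTCCgcccgctc
ALB (chr4:73404277-73404301, plus strand): tccgtttgtcctagcttttctcttc
GDF15 (chr19:18386148-18386172, plus strand): gcatctggtcagtcccagctcagag
GOT1 (chr10:99430610-99430634, minus strand): cgcaacggccagacctgacctgcca

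The 181 members with the tract had a median of -0.26 and the 1339 without it a median of -0.25. With the ribosomal protein genes left out, the 139 members with the tract had a median of -0.36, and 33.8% of them were lower in all 3 libraries and 12.9% higher. Over all 181, all 3 sgMETTL16 libraries were higher for 14.4% and lower for 29.8%, against 12.9% and 29.1% of the 1339. Their level did differ as a description, with a median of 183 rescaled TPM against 84.0. With the ribosomal protein genes left out, the 139 members with the tract had a median level of 113. RPS24 and TPT1, both printed above with a tract, were higher with all 3 guides, and TPT1 (a growth-linked tumour protein) was at 89.7 rescaled TPM in sgNS and at 174, 339 and 173.

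Initiation factors were described in 2 lists. Of 14 subunits of eIF3, the scaffold that brings the small ribosomal subunit to mRNA, 10 were compared, with a median of 0.09, 3 higher in all 3 libraries and 3 lower (with centring 4 and 2). Of 32 other initiation factors 20 were compared, with a median of -0.79, 1 higher in all 3 and 9 lower (with centring 1 and 7), against 13.0% and 29.1% over all genes (24.4% and 22.5%). Of these 20, 18 had a difference below 0 and 2 above. DENR, which serves in reinitiation and recycling, was at 266 rescaled TPM in sgNS and at 61.8, 57.4 and 68.4 in the sgMETTL16 libraries. These 3 values lay at the recurring ratio. EIF5, which triggers GTP hydrolysis at the start codon, was at 121 and at 42.2, 78.3 and 15.6, with every guide below sgNS. The difference between the lists was not tested. The 10 compared genes on the list of elongation and termination factors, which also holds TPT1, had a median of -0.42. Of them, 2 were higher in all 3 libraries and 3 lower, a share near that over all genes.

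Genes of the cell cycle had medians below that of all genes. Of 33 DNA replication genes 15 were compared, with a median of -1.03 and library medians of -0.77, -0.88 and -0.63. All 3 libraries were lower for 9 of 15 and higher for 0, against 29.1% and 13.0% over all genes, and with centring lower for 5 and higher for 3, against 22.5% and 24.4%. In sgMETTL16-3 the list was level with the median gene of that library, and both lay near its recurring ratio (-0.62). The inputs of the 15 genes had a median of -0.21.

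POLA1, the catalytic subunit of DNA polymerase alpha (chromosome X, 24693918 to 24996986), was at 132 rescaled TPM in sgNS and at 15.4, 28.5 and 17.0 in the sgMETTL16 libraries. SLBP, which binds the stem-loop of histone mRNAs, was at 273 and at 39.7, 36.8 and 87.9. MCM3, a subunit of the replicative helicase, was at 701 and at 244, 252 and 270.3. All 3 genes lay below sgNS with every guide, with log2 changes of -2.70 (SE 0.89), -2.41 (SE 1.04) and -1.45 (SE 1.05) and a limma adjusted p of 0.978 each. The sgMETTL16-1 and sgMETTL16-3 values of POLA1 and MCM3 lay near the recurring ratio between those libraries. So did the sgMETTL16-1 and sgMETTL16-2 values of SLBP. Whether few reads gave these values was not tested. Summed, the list held 0.406% of rescaled TPM in sgNS and 0.255%, 0.311% and 0.244% in the others (exact two-sided permutation p = 0.25, the smallest possible). Without ribosomal RNA the share in sgMETTL16-3 was 0.840% against 0.830% in sgNS, so the order of that library turned with the scaling.

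Of 28 mitosis genes 17 were compared, with a median of -0.60 and library medians of -0.46, -0.30 and -1.03. All 3 libraries were lower for 11 of the 17 and higher for 1, against 29.1% and 13.0% over all genes, and with centring lower for 9 and higher for 2, against 22.5% and 24.4%. CCNA2, cyclin A2, was at 259 rescaled TPM in sgNS and at 140 and 167 with the first and second guide and 33.2 with the third. SMC4, a condensin subunit, was at 158 and at 45.9, 56.7 and 50.7. Both lay below sgNS with every guide.

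Replication-dependent histones were split. Of 66 genes 10 were compared, with a median of -0.46, 4 lower in all 3 libraries and 1 higher (with centring 4 and 3), against 29.1% and 13.0% over all genes (22.5% and 24.4%). HIST1H3C was at 2836 rescaled TPM in sgNS and at 449, 621 and 562 in the sgMETTL16 libraries, a log2 change of -2.39 (SE 1.08, limma adjusted p = 0.978). HIST1H2AH was at 1920 and at 556, 343 and 206, below sgNS with every guide. In contrast HIST1H4K was at 447 and at 2070, 2872 and 289, which overlapped. Histone genes of a type are nearly identical in sequence, so reads can be split between copies and the values of single genes are uncertain. The inputs of the 10 genes had a median of -2.04.

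Proteasome genes had a median above that of all genes, and genes of RNA splicing one below it. Of 32 proteasome genes 23 were compared, with a median of 0.39, 6 higher in all 3 libraries and 3 lower (with centring 12 and 3), against 13.0% and 29.1% over all genes (24.4% and 22.5%). PSMD4 was at 51.5 rescaled TPM in sgNS and at 128, 356 and 404, while PSMD7, a lid subunit, was at 524 and at 152, 235 and 56.2, so members of the same complex lay on both sides of sgNS. Of 61 genes of the spliceosome, SR and hnRNP proteins, 41 were compared, with a median of -0.52, 18 lower in all 3 libraries and 5 higher (with centring 14 and 7), against 29.1% and 13.0% over all genes (22.5% and 24.4%). LSM5, of the ring that binds the U6 RNA, was at 199 and at 38.6, 71.6 and 42.7. The m6A writers, erasers and readers had 8 of 26 genes compared, with a median of -0.17, 2 higher in all 3 and 2 lower (with centring 1 and 2), against the same shares over all genes.

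Of the remaining lists with 5 or more members, 8 had medians between -0.37 and 0.05. Medians were -0.06 for 22 nuclear genes of the respiratory chain, -0.18 for 13 genes of glycolysis, -0.22 for 26 chaperones, -0.31 for 24 genes of translocation and folding in the endoplasmic reticulum, and -0.24 for 15 actins and tubulins. They were 0.05 for 14 aminoacyl-tRNA synthetases, -0.12 for 12 genes of cholesterol and fatty acid synthesis and -0.37 for 13 of ribosome biogenesis. The respiratory chain held genes in both directions: NDUFS1, a subunit of complex I, was at 42.9 rescaled TPM in sgNS and at 249, 185 and 82.8, and NDUFS5, another, was at 1341.5 and at 467, 576 and 173. The 6 compared p53 targets of 25 had a median of 0.50, the highest after the apolipoproteins and the secreted liver proteins among the 22 lists. Of them 2 were higher in all 3 libraries and 0 lower (with centring also 2 and 0), against 13.0% and 29.1% over all genes (24.4% and 22.5%). Besides GDF15 the death receptor gene TNFRSF10B was higher with every guide, at 34.7 and at 80.7, 169 and 89.3.

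The input RNA of the same 1821 genes gave 2 higher (0.11%) and 0 lower (0.0%) genes in limma, IGFBP1 and RNA28S5. IGFBP1, a secreted protein that binds insulin-like growth factors, had an input change of 2.66 (SE 0.19, limma adjusted p = 0.00946). Its footprints were at 265.4 rescaled TPM in sgNS and at 1233.5, 1668 and 285 in the sgMETTL16 libraries, higher with every guide but not past the threshold. With centring 11 were higher (0.604%) and 13 lower (0.714%). RNA18S5 and RNA5-8S5 were listed at 0 in all 4 inputs. The footprints of RNA28S5 were at 110246 rescaled TPM in sgNS and at 134817, 83151 and 222593, where the groups overlapped.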

How the data were processed

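The authors deposited TPM values for 26830 gene symbols in 8 libraries (4 of footprints, 4 of input). Per the submitters' processing notes, the tools were STAR, of unstated version, and RSEM 1.2.31, and the build was GRCh38. Counts were not used here, so depth and counting error are unknown. TPM divides by length and sums to a fixed total, so a few abundant RNAs shift all other values.

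TPM was rescaled to 1000000 over the 1821 genes, and log2(value + 1) was tested with limma 3.58.1 in R 4.3.3 (trend, empirical Bayes, Benjamini-Hochberg, threshold 0.05), 3 sgMETTL16 libraries against 1 sgNS library. A log2 change on this scale understates that of low genes. The interaction between guide and library type used all 8 libraries. Nothing in the labels says that the cultures were separate beyond their guides, so p-values measure the spread between these samples. Footprint and input libraries of a culture are paired by the labels, and the deviations of pairs correlated at 0.07, 0.04 and 0.02 across genes. The fit was tested on simulated data.

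The members and the gene lists were chosen with earlier results of these data known. Genes named were METTL16, MAT2A, the 12 highest levels, the 10 smallest p in each direction, any gene called where 5 or fewer were, and up to 4 list members by smallest p. Not every gene of that rule is described one by one, and genes that a count names in full were named after their values were seen. Symbols were matched to RefSeq (GRCh38.p14), 1738 through current and 72 through older names, with 11 unmatched, and start sequences are from RefSeq.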

Additional observations from a re-analysis of the deposited data

Results flagged for a closer look

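Outside the compared genes, 594 genes were above 0 in all 3 sgMETTL16 footprint libraries and listed at 0 in the sgNS footprints. They are given here because the comparison requires a value above 0 in every library and so leaves them out. In the reverse direction 530 genes had a value above 0 with the control guide and were at 0 with every METTL16 guide. Of all genes apart from small RNAs, 9268 were above 0 in at least 1 footprint library.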

How the results depend on the processing

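The count of 0 footprint calls stayed 0 with pseudocounts of 0.1 and 10, deposited TPM, quantile normalization, a mean of 200 or more rescaled TPM, protein-coding genes, no trend and without ribosomal RNA. It was 3 with centring, 600 with no filter on values of 0 (all 600 listed at 0 on 1 side) and 0 to 7 with 1 sgMETTL16 library left out: 0 without sgMETTL16-1, 6 lower ones without sgMETTL16-2 (among them KDM5A and SYNE2) and 7 without sgMETTL16-3 (AKR1C3, APLP2, CTSB, GDF15, GOT1 and SERPINA1 higher, SYNE2 lower). Input calls were 2, but 3 with a pseudocount of 0.1, 24 with centring, 1 without ribosomal RNA and 28 to 69 with 1 culture left out. The interaction had 0 calls in all settings, and with the culture as a replicate block 0 (163 at an unadjusted p of 0.05, against 83). The median of the m6A list was -0.35 at a mean of 200 or more (HNRNPA2B1 and HNRNPC alone), -0.49 on deposited TPM, 0.061 with centring and 0.20 with quantile normalization. That of the p53 list became 3.09 at a mean of 200 or more, where GDF15 is its only gene. That of DNA replication was -0.90 with a pseudocount of 10, -1.43 at a mean of 200 or more (MCM3, PCNA and TYMS alone), -1.35 on deposited TPM, -0.80 with centring, -0.73 with quantile normalization and -1.06 to -0.75 with 1 sgMETTL16 library left out (-0.75 without sgMETTL16-1), and the ratio of its share to sgNS was 0.520 on deposited TPM against 0.666. Among single genes, APOH ranged from -0.74 to 0.46 and TIGAR from -0.19 to 0.99 with 1 sgMETTL16 library left out, turning sign without sgMETTL16-3 and sgMETTL16-2, respectively. Leaving out ribosomal RNA, and list medians under each setting, were chosen after seeing the data. The cause of these changes was not tested.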

Other observations

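A few compared genes carried footprint signal with no input. VIM, an intermediate filament protein, was at 476 rescaled TPM in sgNS and at 237, 293 and 141 in the sgMETTL16 libraries, and LDHB, a lactate dehydrogenase subunit, was at 223 and at 130, 60.1 and 215, while both were listed at 0 in all 4 inputs. In all, 14 protein-coding members were under 0.1 TPM in every input.

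Several lists had fewer than 5 compared genes. ASNS, asparagine synthetase, was at 72.5 rescaled TPM in sgNS and at 337, 274 and 46.7 in the sgMETTL16 libraries, and SLC7A5, an amino acid transporter, was at 190 and at 81.2, 51.3 and 61.1. The asialoglycoprotein receptor genes ASGR1 and ASGR2, typical of hepatocytes, were at 211 and 100.5 in sgNS, at 307 and 292 in sgMETTL16-1, at 683 and 433 in sgMETTL16-2 and at 136 and 64.7 in sgMETTL16-3. Among snoRNA host genes, SNHG5 was at 605 and at 175, 162 and 195, where the 3 guides lay below sgNS and at the recurring ratio among themselves.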
